A study of Mus musculus with 24 samples.

Results

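The miR-23, miR-27 and miR-24 microRNAs (miRNAs) were measured in 3 mouse mammary carcinoma lines grown in organotypic culture. Array probes were taken if their name held miR-23a, miR-23b, miR-24, miR-27a or miR-27b, with passenger strands left out, and 3 of 558 miRNA probes met this rule. miR-23a and miR-23b share 1 probe, and miR-27a and miR-27b share another, so these 3 probes read 5 mature names and cannot tell the a and b forms apart. They are called miR-23, miR-24 and miR-27 here. All 3 entered the tests and were detected above background on 24 of 24 arrays.

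In mammals these miRNAs come from a pair of paralogous clusters, each of which holds a miR-23, a miR-27 and a miR-24 hairpin and is transcribed as a unit. One arm of each hairpin accumulates as the main strand, and the other arm, the passenger strand, is written with a star. Reported targets link the clusters to the pathway studied: the miR-23b cluster was reported to repress Smad genes, which carry the TGF-beta signal to the nucleus, and miR-23a was reported to be induced by TGF-beta and to repress E-cadherin in carcinoma cells.

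The lines were 67NR, labelled as nonmetastatic, 4TO7, labelled as systemically invasive, and 4T1, labelled as highly metastatic; all are sublines of a single mouse mammary tumour. Each was kept for 6 days in a compliant or a rigid microenvironment and received either TGF-beta or a compound that blocks its type I receptor; the labels call the second treatment basal, and it is called inhibitor here. There was no untreated group, so every comparison of treatment sets added ligand against blocked signalling. The 12 combinations had 2 replicate arrays each, named set 1 and set 2, over 5 slides. Whether the sets were separate cultures is not stated in the labels, so p-values reflect only how far arrays of a group spread, which may be technical. Doses, stiffness values and the number of cells behind each array are not given in the sources used here.

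The mature sequences are shown because they set what the shared probes can separate. RefSeq (GRCm38.p6) held 4 of the 5 main-strand names, and miR-23b was the name without an entry. Capitals mark the seed, bases 2 to 8, which pairs with target messages.
miR-23a: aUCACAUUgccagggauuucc
miR-27a: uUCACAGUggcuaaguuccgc
miR-27b: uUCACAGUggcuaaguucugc
miR-24: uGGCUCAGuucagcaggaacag
miR-27a and miR-27b have the same seed and differ by C19U, counted from the 5′ end of miR-27a. The seeds of miR-23a and miR-27a share their first 5 bases and then part, and the miR-24 seed is unrelated to both. On the array, 1 further miRNA, miR-673-5p, shares bases 2 to 7 with miR-27.

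The miR-23a cluster lies at chr8:84208518-84208921 on the plus strand and its hairpins overlap no protein-coding gene in the annotation. The miR-23b cluster lies at chr13:63300484-63301275, also on the plus strand, within the span of the protein-coding gene Aopep. Mature miR-24 is identical from both loci, as the hairpins Mir24-2 (chr8:84208815-84208921) and Mir24-1 (chr13:63301208-63301275) show, with the main strand in capitals.
Mir24-2: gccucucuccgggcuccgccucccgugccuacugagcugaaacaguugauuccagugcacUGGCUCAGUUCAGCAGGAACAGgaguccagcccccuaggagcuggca
Mir24-1: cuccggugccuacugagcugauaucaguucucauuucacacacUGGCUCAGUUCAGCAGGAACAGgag
Their passenger strands do differ, so passenger probes are the ones on this array that name a single locus. Of 6 passenger names 4 were on the array, all detected on 24 of 24 arrays, and capitals again mark the seed.
miR-24-2*, from the miR-23a cluster: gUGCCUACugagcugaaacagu
miR-24-1*, from the miR-23b cluster: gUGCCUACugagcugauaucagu
miR-27a*, from the miR-23a cluster: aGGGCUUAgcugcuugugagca
miR-27b*, from the miR-23b cluster: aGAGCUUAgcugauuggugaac
miR-24-1* and miR-24-2* share their first 16 bases and are 2 edits apart, and miR-27a* and miR-27b* are 5 edits apart. How far each probe also binds the other form was not tested.

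Over the whole series, 313 to 357 of 558 miRNA probes were detected per array, replicate arrays correlated at 0.995 to 0.999, and 365 probes were tested. Cell type markers moved with the lines. miR-200b, miR-200c and miR-429, which mark epithelial cells, were detected on the 8 4T1 arrays and on no other. Of the other 3 epithelial markers miR-141 was detected on all 24 arrays, miR-200a on 15 (1 in 67NR, 6 in 4TO7 and 8 in 4T1) and miR-205 on 2 4TO7 arrays and no 4T1 array. The summed level of 6 epithelial markers was 8.59 to 8.68 in 67NR, 8.69 to 9.14 in 4TO7 and 10.6 to 10.8 in 4T1 (log2). The summed level of the 5 fibroblast and mesenchymal markers on the array ran the other way, at 13.5 to 13.8, 13.1 to 13.2 and 12.8 to 13.1. This sum was set mainly by miR-214, at 12.66 to 13.69 over the 24 arrays. miR-145 reached at most 9.08, miR-199a-5p 8.50 and miR-143, detected in 67NR only, 7.10. miR-199a-3p and miR-199b were detected on no array. Of 5 blood markers only miR-451 was detected, neither endothelial marker was, and of 6 muscle markers miR-208b was detected throughout and miR-206 on the 8 67NR arrays alone. The part of these differences in the line results below was not tested.

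All 3 main strands were lowest in 67NR, intermediate in 4TO7 and highest in 4T1. Levels are log2 relative intensities (sample dye over reference dye) after quantile normalization and are compared within a probe only. miR-23 had a lowest, median and highest value of 11.21, 11.44 and 11.66 on the 8 67NR arrays, 11.91, 12.01 and 12.11 on the 8 4TO7 arrays and 12.11, 12.48 and 12.78 on the 8 4T1 arrays. miR-24 had 10.12, 10.28 and 10.53 in 67NR, 10.94, 11.21 and 11.38 in 4TO7, and 11.43, 11.77 and 11.91 in 4T1. miR-27 had 11.66, 11.91 and 12.38 in 67NR, 12.38, 12.66 and 12.92 in 4TO7, and 12.92, 13.27 and 13.40 in 4T1. After quantile normalization the lines did not overlap for miR-24, and for miR-23 and miR-27 neighbouring lines at most touched at a single shared value. With scaling to equal medians over the probes that every array detected, 4TO7 and 4T1 overlapped for each probe. The highest 4TO7 and lowest 4T1 values were 12.34 and 12.16 for miR-23, 11.40 and 11.36 for miR-24 and 12.96 and 12.91 for miR-27. From the authors' value table and with cyclic loess normalization only miR-23 overlapped between these lines. 67NR stayed lowest without overlap under each of these scalings. Because these probes are among the brightest (ranks 8 to 78 of 558), quantile normalization gave them 12, 17 and 13 different values for miR-23, miR-24 and miR-27 over 24 arrays, so equal values mean equal ranks.

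**Figure D1:**
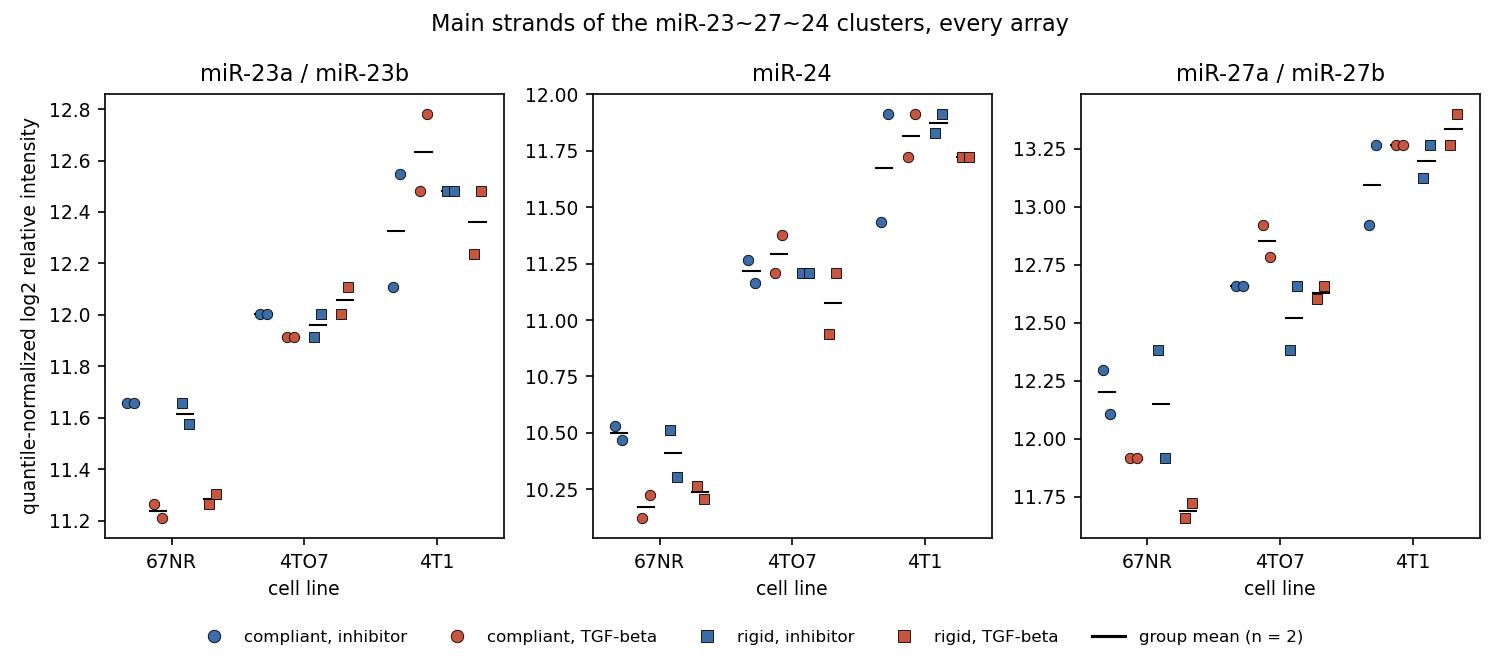
Quantile-normalized log2 relative intensity (vertical axis) of the miR-23, miR-24 and miR-27 probes on each of 24 arrays, by cell line. Circles are compliant and squares rigid cultures, blue is inhibitor and red TGF-beta, and bars are means of 2 arrays. Each probe steps up from 67NR through 4TO7 to 4T1, with neighbouring lines at most touching at a shared value. Within 67NR red lies below blue, except for miR-27, where they meet at 11.91.

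The line differences passed the test for every main strand. miR-24 differed most: it was 0.87 ± 0.06 (SE) higher in 4TO7 than in 67NR, 1.83-fold (limma, adjusted p = 2.8e-09, 8 arrays a line), and 1.44 ± 0.06 higher in 4T1 than in 67NR, 2.72-fold (adjusted p = 2.87e-12). miR-27, a repressor of fat-cell and lipid regulators such as Pparg, was 0.68 ± 0.07 higher in 4TO7 (adjusted p = 1.01e-07) and 1.23 ± 0.07, or 2.35-fold, higher in 4T1 (adjusted p = 3.21e-11). miR-23 was 0.53 ± 0.06 higher in 4TO7 (adjusted p = 3.11e-07) and 1.001 ± 0.06, or 2.002-fold, higher in 4T1 (adjusted p = 7.46e-11). Between 4T1 and 4TO7 the differences were nearly equal, at 0.47 ± 0.06 for miR-23, 0.57 ± 0.06 for miR-24 and 0.56 ± 0.07 for miR-27 (adjusted p = 3.87e-06, 1.25e-06 and 2.43e-06). The lines differed widely in general. Of all tested probes 29.9% were called higher in 4TO7 than in 67NR, 30.7% in 4T1 than in 67NR and 23% in 4T1 than in 4TO7, and 86.8%, 89.6% and 63% were called in either direction. The median tested probe lay at -0.15, -0.22 and -0.07.

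Where arrays of different lines shared a slide, microenvironment and treatment, the same order held with 1 tie. These pairs are not all separate: 2 of the 4 pairs of 4TO7 with 67NR share a 67NR array, as do 2 of the 3 pairs of 4T1 with 67NR. miR-24 was higher in 4TO7 than in 67NR in 4 of 4 such pairs, by 0.70 to 1.003, and in 4T1 than in 67NR in 3 of 3, by 1.38 to 1.69. miR-23 was higher in 4 of 4 (0.26 to 0.81) and 3 of 3 (0.89 to 1.57). miR-27 was higher in 3 of 4, with equal values in the other, and in 3 of 3 (0.97 to 1.35).

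From the highest to the lowest group mean, miR-23 ran from 12.6 in compliant 4T1 with TGF-beta to 11.2 in compliant 67NR with TGF-beta, a 2.63-fold range. miR-24 ran from 11.9 in rigid 4T1 with inhibitor to 10.2 in compliant 67NR with TGF-beta (3.25-fold), and miR-27 from 13.3 in rigid 4T1 with TGF-beta to 11.7 in rigid 67NR with TGF-beta (3.13-fold). These ranges stood 51st, 35th and 38th of 365 tested probes, whose median range was 0.65 on the log2 scale. Most neighbours in this order could not be told apart: of 11 neighbouring pairs of groups the arrays overlapped or met in 9 for miR-23, 8 for miR-24 and 8 for miR-27. Each of the 3 probes had a gap between the lowest 4TO7 group and the 67NR group next to it by mean. For miR-27, though, single arrays of other groups of these lines met at 12.38. miR-23 and miR-24 had another gap inside 67NR, between rigid cultures with inhibitor and rigid cultures with TGF-beta. That of miR-27 inside 67NR lay between compliant and rigid cultures with TGF-beta (0.23 between means). miR-24 also had a gap between compliant 4T1 with inhibitor and compliant 4TO7 with TGF-beta (0.38 between means). miR-27 also had a gap inside 4TO7, between compliant cultures with TGF-beta and with inhibitor (0.19 between means).

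The passenger strands did not follow as a set. miR-24-2*, from the miR-23a cluster, rose with miR-24: its lowest, median and highest values were 7.41, 7.49 and 7.61 in 67NR, 7.50, 7.79 and 7.97 in 4TO7, and 7.82, 8.01 and 8.20 in 4T1. It was 0.27 ± 0.03 higher in 4TO7 and 0.50 ± 0.03 higher in 4T1 than in 67NR (limma, adjusted p = 8.57e-07 and 2.21e-10, 8 arrays a line). miR-24-1*, from the miR-23b cluster, was nearly flat at 7.09 to 7.38 over all 24 arrays, and its range of group means, 0.22, was 353rd of 365. It was 0.08 ± 0.03 higher in 4TO7 and 0.09 ± 0.03 higher in 4T1 than in 67NR (adjusted p = 0.0143 and 0.00592), calls that were lost when arrays were scaled to equal medians over all miRNA probes (0.03 and 0.05, adjusted p = 0.345 and 0.117), and the call in 4TO7 was also lost with slide as a fixed block (0.08, adjusted p = 0.0749). With cyclic loess normalization the same differences were 0.16 and 0.27 (adjusted p = 5.68e-05 and 3.89e-08). miR-24-1* lay close to the detection limit, at intensity ranks 302 to 339, where 313 to 357 probes were detected per array. Its largest detection p against background probes was 0.0293, and that of miR-24-2* was 2.26e-06. Whether closeness to background flattened miR-24-1* was not tested, so its contrast with miR-24-2* cannot be read as a contrast between the clusters.

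Both miR-27 passenger strands ran against their main strand. miR-27a* had a lowest, median and highest value of 9.96, 10.08 and 10.25 in 67NR, 9.71, 9.78 and 9.96 in 4TO7, and 9.34, 9.54 and 9.93 in 4T1. miR-27b* had 8.03, 8.15 and 8.31 in 67NR, 7.73, 7.90 and 8.01 in 4TO7, and 7.44, 7.58 and 7.82 in 4T1. After quantile normalization the 67NR arrays lay at or above every 4TO7 and 4T1 array for both, while 4TO7 and 4T1 overlapped. With scaling to equal medians over the probes that every array detected, miR-27b* overlapped between 67NR and 4TO7 (lowest 67NR 7.95, highest 4TO7 8.03). The same held from the authors' value table (7.92 and 8.001) and with cyclic loess normalization (7.89 and 8.03). With cyclic loess miR-27a* also overlapped, between 67NR and the other lines (lowest 67NR 9.90, highest 4T1 9.98). Against 67NR, miR-27a* was lower by a difference of -0.26 ± 0.07 in 4TO7 and -0.47 ± 0.07 in 4T1 (limma, adjusted p = 0.00261 and 8.17e-06), and miR-27b* by -0.29 ± 0.05 and -0.55 ± 0.05 (adjusted p = 0.000119 and 7.22e-08). Of all tested probes 57% and 58.9% were called lower in these comparisons. In 4T1 against 4TO7, where 40% of probes were called lower, miR-27a* stood at -0.21 ± 0.07 and miR-27b* at -0.26 ± 0.05 (adjusted p = 0.0149 and 0.000699), miR-24-2* at 0.23 ± 0.03 (adjusted p = 9.07e-06) and miR-24-1* at 0.01 ± 0.03 (adjusted p = 0.736). The last was called from the authors' value table (0.09, adjusted p = 0.0103) and with cyclic loess (0.11, adjusted p = 0.00419). With cyclic loess normalization, which moved the median of all tested probes from -0.15 to -0.03 in 4TO7 and from -0.22 to -0.04 in 4T1, the falls shrank to -0.12 and -0.27 for miR-27a* and to -0.12 and -0.29 for miR-27b*, all still called. In the same setting 48.1% of calls in 4TO7 and 48.3% in 4T1 were higher than in 67NR, against 34.4% and 34.3% with quantile normalization.

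**Figure D2:**
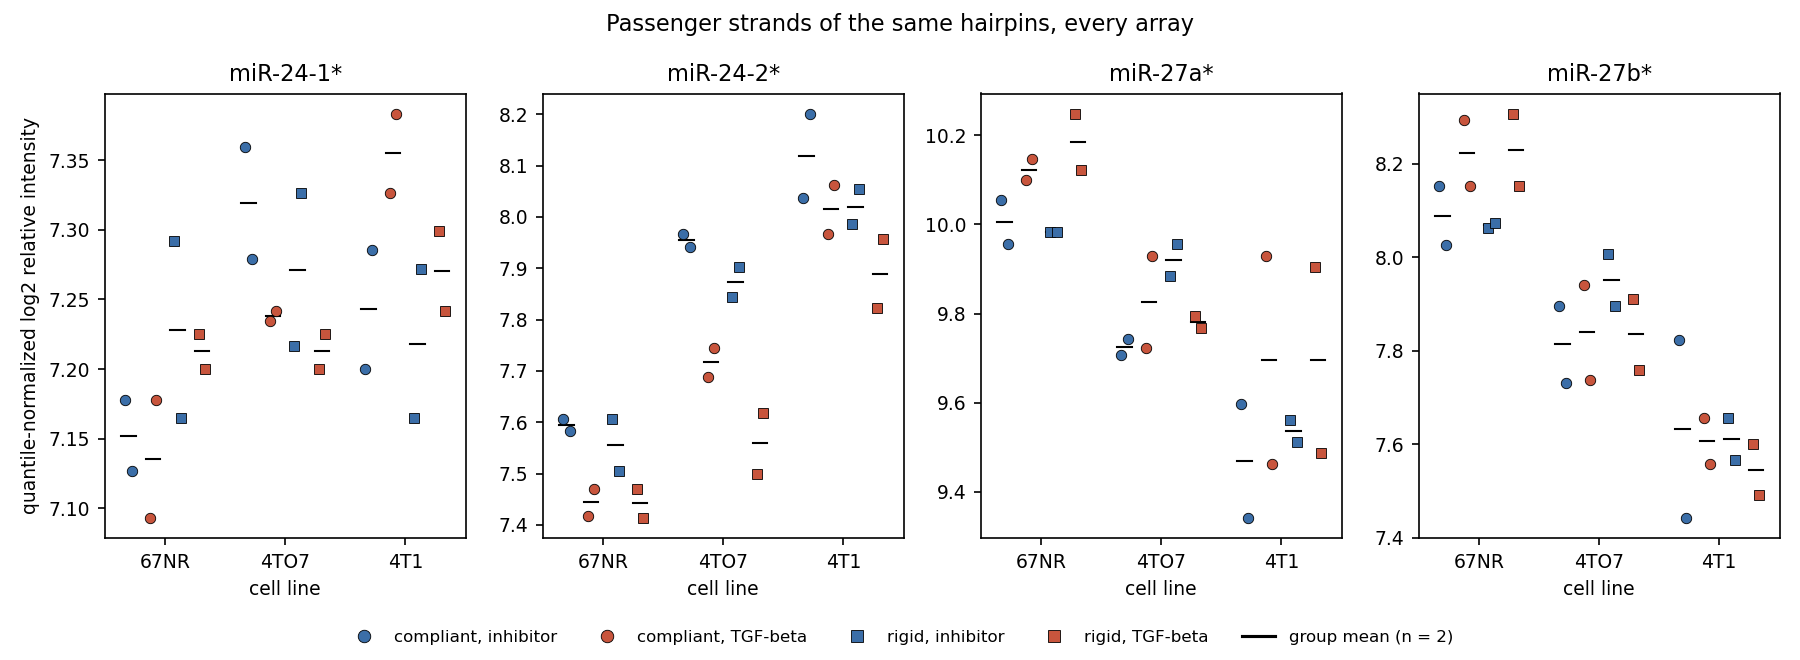
Quantile-normalized log2 relative intensity (vertical axis) of the 4 passenger-strand probes on each of 24 arrays, by cell line, with the symbols of the main-strand plot; the vertical scale differs between panels. miR-24-2* climbs from 67NR to 4T1 and its TGF-beta arrays (red) tend to lie below the inhibitor arrays (blue), whereas miR-27a* and miR-27b* are highest in 67NR.

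**Figure D3:**
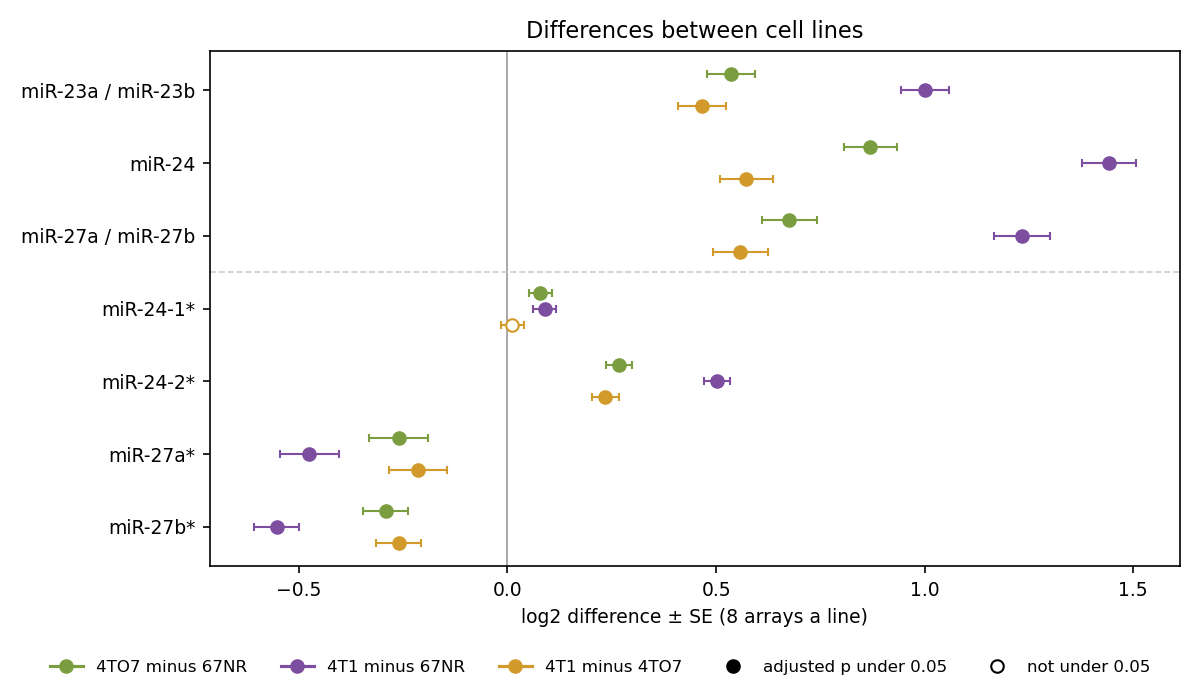
Log2 difference between lines with its SE (horizontal axis) for each main-strand probe (above the dashed line) and passenger-strand probe, from limma with 8 arrays a line. Filled points passed an adjusted p of 0.05; the 3 main strands and miR-24-2* lie to the right of 0, and miR-27a* and miR-27b* to the left.

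In 67NR cells TGF-beta lowered miR-23 and miR-27. On the 4 arrays with inhibitor miR-23 read 11.66, 11.66, 11.66 and 11.58, and on the 4 with TGF-beta 11.27, 11.21, 11.27 and 11.303. The groups did not overlap. The difference was -0.38 ± 0.08 (limma, adjusted p = 0.0052), and it stood at -0.42 in compliant and -0.33 in rigid culture. miR-27 read 12.30, 12.11, 12.38 and 11.91 with inhibitor and 11.91, 11.91, 11.66 and 11.72 with TGF-beta, so that the groups met at 11.91. Its difference was -0.37 ± 0.09 (limma, adjusted p = 0.0153), with -0.29 in compliant and -0.46 in rigid culture. Of all tested probes 7.67% were called lower in 67NR, 3.29% higher and 11% in either direction, so calls were few in this line.

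miR-24 read 10.53, 10.47, 10.51 and 10.31 with inhibitor and 10.12, 10.22, 10.26 and 10.21 with TGF-beta in 67NR. All inhibitor arrays lay above all TGF-beta arrays, but the difference of -0.25 ± 0.09 missed the threshold (limma, adjusted p = 0.0838, 95% interval -0.44 to -0.06 before adjustment). It passed with scaling to equal medians over all miRNA probes (-0.29, adjusted p = 0.0262), cyclic loess normalization (-0.32, adjusted p = 0.0176) and array weights (adjusted p = 0.0328), and over 11 alternatives the adjusted p ran from 0.0176 to 0.146. Leaving out single arrays it ran from 0.0251, without set 1 of compliant 4T1 with inhibitor, to 0.254, without set 1 of rigid 67NR with inhibitor.

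The call for miR-27 in 67NR rested on single arrays with inhibitor. It was lost without set 1 of compliant 67NR with inhibitor (-0.33, adjusted p = 0.0746) and without set 1 of rigid 67NR with inhibitor (-0.26, adjusted p = 0.0828), while miR-23 kept its call without any 1 array (adjusted p at most 0.0273). TGF-beta and inhibitor arrays of 67NR shared a slide in 2 cases. There the differences for miR-23, miR-24 and miR-27 were -0.39, -0.41 and -0.38 in compliant culture and -0.35, -0.30 and -0.66 in rigid culture. The summed level of the epithelial markers was 8.64 to 8.68 with inhibitor and 8.59 to 8.60 with TGF-beta in 67NR. That of the fibroblast and mesenchymal markers, set mainly by miR-214, was 13.79 to 13.80 and 13.54 to 13.80. The part of these shifts in the miRNA result was not tested.

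**Figure D4:**
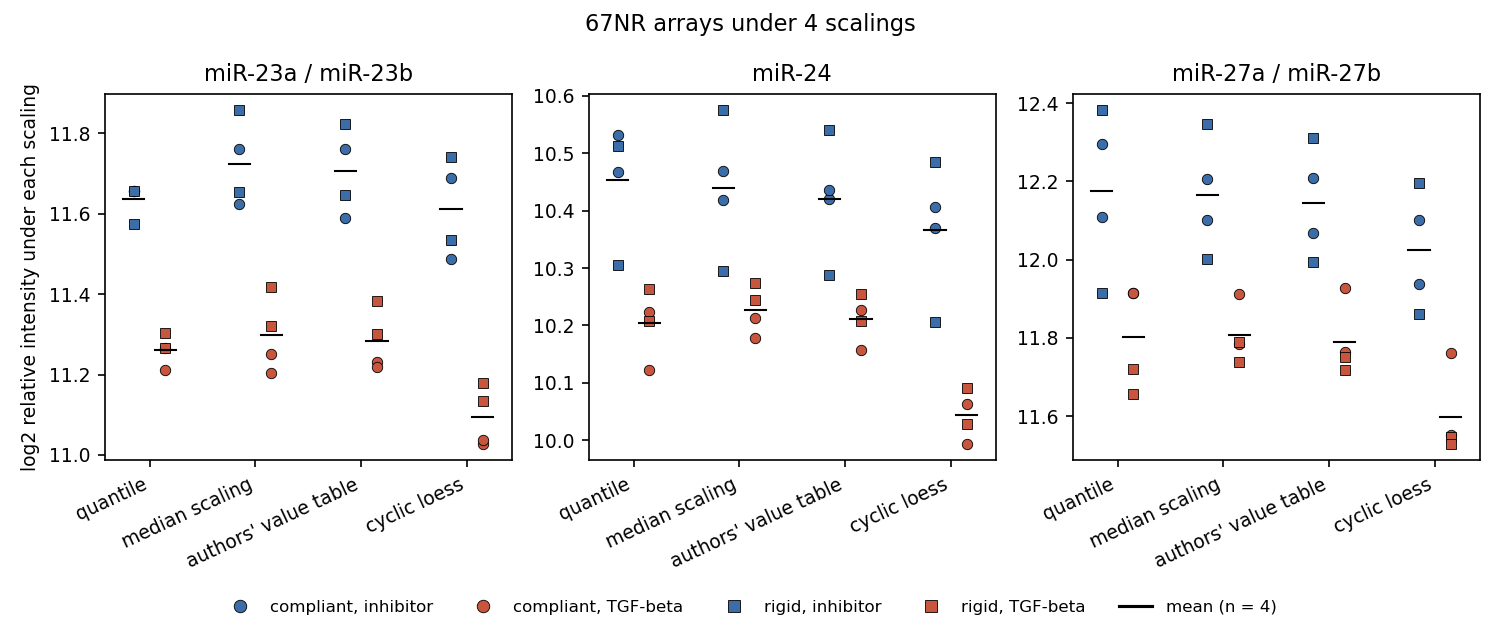
Log2 relative intensity (vertical axis) of miR-23, miR-24 and miR-27 on the 8 67NR arrays under quantile normalization, median scaling (over those probes that every array detected), the authors' value table and cyclic loess normalization (horizontal axis). Blue is inhibitor, red TGF-beta, circles compliant, squares rigid, bars means of 4 arrays; the colours stay apart in every panel except for miR-27 under quantile normalization, where they meet at 11.91.

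Averaged over both microenvironments, 4TO7 and 4T1 showed no such fall. In 4TO7 miR-23 read 11.91 to 12.01 with inhibitor and 11.91 to 12.11 with TGF-beta, a difference of 0.00 ± 0.08 (limma, adjusted p = 0.993, 95% interval -0.17 to 0.18). miR-24 read 11.16 to 11.27 and 10.94 to 11.38, a difference of -0.03 ± 0.09 (adjusted p = 0.867), and miR-27 12.38 to 12.66 and 12.60 to 12.92, a difference of 0.15 ± 0.09 (adjusted p = 0.287). In 4T1 the differences were 0.09 ± 0.08 for miR-23, -0.00 ± 0.09 for miR-24 and 0.16 ± 0.09 for miR-27 (limma, adjusted p = 0.396, 0.982 and 0.213), and the arrays of both treatments overlapped for miR-23 and miR-24 and met at 13.27 for miR-27. By microenvironment, compliant then rigid, miR-23 stood at -0.09 and 0.10 in 4TO7 and at 0.31 and -0.12 in 4T1. miR-24 stood at 0.08 and -0.14 in 4TO7 and at 0.14 and -0.15 in 4T1. miR-27 stood at 0.19 and 0.11 in 4TO7 and at 0.17 and 0.14 in 4T1. After quantile normalization the arrays did not overlap for miR-23 and miR-27 in compliant 4TO7 and for miR-24 in rigid 4T1. Scaled to equal medians over the probes that every array detected, miR-24 in rigid 4T1 was instead higher with TGF-beta. It read 11.52 and 11.55 with inhibitor and 11.62 and 11.64 with TGF-beta. The authors' value table and cyclic loess normalization gave this order too. Under each of these scalings miR-23 overlapped in compliant 4TO7, its mean now higher with TGF-beta, and miR-27 stayed apart there. These values were not tested. Of all tested probes 21.4% were called in 4TO7, 9.59% as higher, and 31.8% in 4T1. Averaged over the lines, with 39.5% of probes called, none of the 3 passed at -0.09 ± 0.05, -0.09 ± 0.05 and -0.02 ± 0.05 (adjusted p = 0.127, 0.164 and 0.759).

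**Figure D5:**
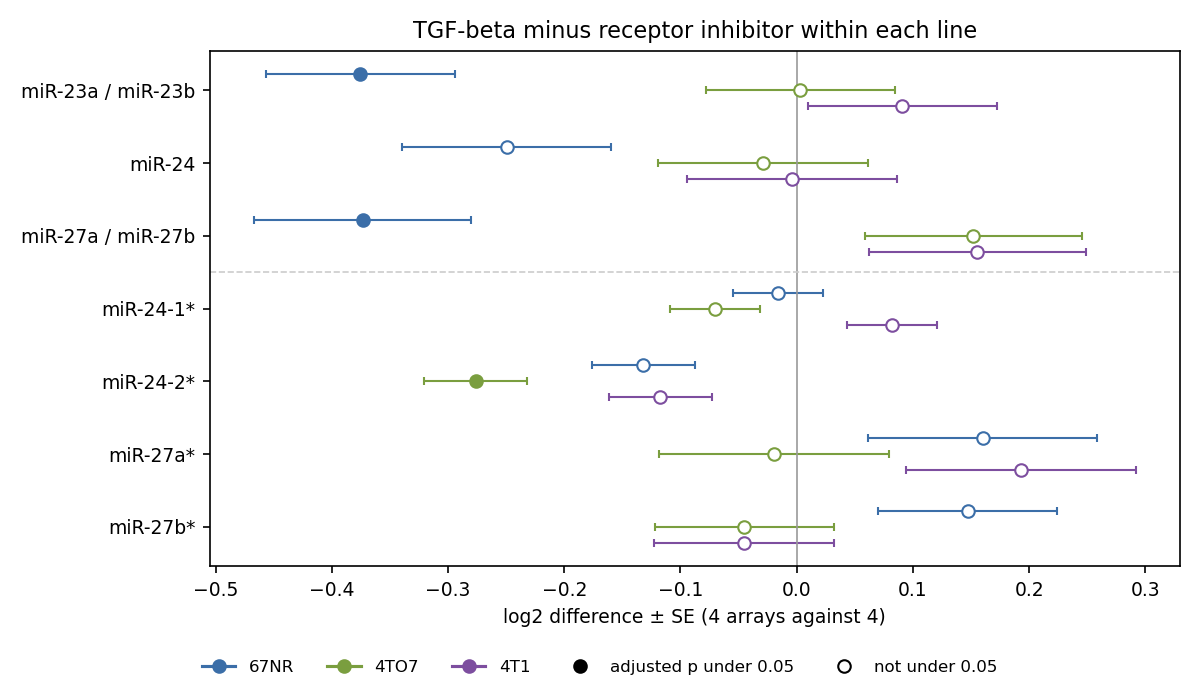
Log2 difference between TGF-beta and receptor inhibitor with its SE (horizontal axis) within 67NR, 4TO7 and 4T1, for each main-strand probe (above the dashed line) and passenger-strand probe, 4 arrays against 4. Filled points passed an adjusted p of 0.05: miR-23 and miR-27 in 67NR and miR-24-2* in 4TO7, all to the left of 0.

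For miR-23 and miR-27 the lines differed in how these miRNAs moved with TGF-beta. In a test of the line by treatment term, in which 14.5% of probes were called, the adjusted p was 0.0208 for miR-23 and 0.0141 for miR-27 (limma), against 0.307 for miR-24. The TGF-beta difference in 4T1 exceeded that in 67NR by 0.47 ± 0.12 for miR-23 and 0.53 ± 0.13 for miR-27 (adjusted p = 0.0207 and 0.0214, with 6.85% of probes called and 4.11% called in this direction). In 4TO7 it exceeded that in 67NR by 0.38 ± 0.12 and 0.53 ± 0.13 (adjusted p = 0.047 and 0.0188, with 11.5% called, 7.4% in this direction and 4.11% in the other). For miR-24 the same terms were 0.25 and 0.22 (adjusted p = 0.281 and 0.303), but the term of 4T1 against 67NR passed with scaling to equal medians over all miRNA probes (0.40, adjusted p = 0.0448), from the authors' table of values (0.37, adjusted p = 0.0439) and with cyclic loess (0.44, adjusted p = 0.0334). Between 4T1 and 4TO7, with 11.2% of probes called (4.66% higher and 6.58% lower), none of the 3 passed at 0.09 ± 0.12, 0.02 ± 0.13 and 0.00 ± 0.13 (adjusted p = 0.754, 0.945 and 0.999).

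These calls were close to the threshold. With slide as a fixed block the line by treatment term for miR-27 kept its call (adjusted p = 0.0205) and that for miR-23 did not (adjusted p = 0.0864), and both terms of 4T1 against 67NR were lost at nearly unchanged size (0.46 and 0.55, adjusted p = 0.129 and 0.0589). The miR-23 term of 4TO7 against 67NR stayed between 0.35 and 0.40 when single arrays were left out but kept its call in 6 of 24 such fits, with an adjusted p of up to 0.1. The miR-27 term kept its call in 22 of 24 (lost without set 1 of compliant 67NR with inhibitor or set 1 of rigid 4TO7 with inhibitor, adjusted p = 0.0521 and 0.0559). In 4T1 against 67NR miR-23 kept it in 22 of 24 and miR-27 in 20 of 24, with adjusted p of up to 0.056 and 0.0601.

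Among the passenger strands miR-24-2* fell with TGF-beta. With inhibitor it read 7.51 to 7.61 in 67NR, 7.84 to 7.97 in 4TO7 and 7.99 to 8.20 in 4T1, and with TGF-beta 7.41 to 7.47, 7.50 to 7.74 and 7.82 to 8.06. The groups did not overlap in 67NR or 4TO7 and overlapped in 4T1, and the group mean was lower with TGF-beta in all 6 combinations of line and microenvironment, by -0.31 to -0.10. Over all lines the difference was -0.18 ± 0.03 (limma, adjusted p = 4.22e-05, with 18.1% of probes called lower), and it passed under all 11 alternatives and without any 1 array. By line it was -0.28 ± 0.04 in 4TO7 (adjusted p = 0.000199, with 11.8% called lower), -0.13 ± 0.04 in 67NR (adjusted p = 0.0653, 0.0135 to 0.25 over the alternatives) and -0.12 ± 0.04 in 4T1 (adjusted p = 0.0554, 0.0105 to 0.48 over the alternatives, with 19.2% called lower). Set numbers were taken to pair the arrays in 4T1, which the labels do not state. A limma fit with the set number as a block within every line gave adjusted p = 0.0105 for miR-24-2* in 4T1. The same fit gave adjusted p = 0.0341 in 4T1 for miR-27a*, which was 0.19 higher with TGF-beta (adjusted p = 0.146 without the block). In all 5 same-slide pairs miR-24-2* was lower with TGF-beta, by -0.28 to -0.19, though 2 of these pairs share a 4TO7 array with TGF-beta. Without the block, and with all arrays, the other passenger strands passed in no line (adjusted p = 0.116 to 0.922). miR-27a* in 4T1 also passed without set 2 of rigid 4T1 with TGF-beta (0.30, adjusted p = 0.0302) or set 2 of compliant 4T1 with TGF-beta (0.31, adjusted p = 0.0195).

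In 4TO7 mature miR-24 differed by -0.03 ± 0.09 with TGF-beta, which was not called, and its passenger miR-24-2* by -0.28 ± 0.04, which was called. The difference between these values was not tested, since they come from different probes, so whether miR-24 and miR-24-2* moved apart is open. In 67NR both values were negative, and in 4T1 they were -0.00 and -0.12.

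Culture stiffness left the main strands without a called change. Rigid minus compliant, over all lines, was -0.00 ± 0.05 for miR-23, -0.03 ± 0.05 for miR-24 and -0.08 ± 0.05 for miR-27 (limma, adjusted p = 0.971, 0.768 and 0.326), in a comparison that called 21.9% of tested probes. The 95% intervals of this fit were -0.10 to 0.10, -0.14 to 0.09 and -0.19 to 0.04. Other settings moved the values without a call: over 11 alternatives they ran from -0.07 to -0.00 for miR-23, -0.12 to -0.02 for miR-24 and -0.14 to -0.08 for miR-27, whose lowest adjusted p was 0.0546. Within lines the values lay between -0.18 and 0.09, all uncalled, where 11% of probes were called in 67NR (6.3% higher, 4.66% lower), 2.74% in 4TO7 (0.822% and 1.92%) and 7.4% in 4T1 (3.56% and 3.84%). miR-24-2* was lower in rigid culture over all lines (-0.08 ± 0.03, adjusted p = 0.0285, with 11.2% called lower), a call lost with median scaling (adjusted p = 0.0536) and with slide as a block (adjusted p = 0.0882), and kept in 13 of 24 fits that left out 1 array (adjusted p up to 0.0639). In 4T1 the difference was -0.11 ± 0.04, with adjusted p = 0.135, or 0.0445 with the set number as a block within every line (limma).

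Stiffness and TGF-beta showed no called interplay. The test of whether the TGF-beta difference, averaged over the lines, depended on the microenvironment called 0 of 365 probes (limma), with 22 at an unadjusted p under 0.05 and none of the 3 main strands among them (adjusted p = 0.952 for each). The test of whether the stiffness difference depended on the line called 8.22% of probes and none of the 3 (adjusted p = 0.843, 0.758 and 0.437).

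The 3 main strands had similar profiles over the 12 group means, with Pearson r of 0.97 between miR-23 and miR-24, 0.96 between miR-23 and miR-27 and 0.98 between miR-24 and miR-27. The median over all pairs of tested probes was 0.14 and the central 90% ran from -0.92 to 0.94, so high values of either sign are common in these data, where all groups share the line differences and the normalization. miR-24-2* had an r of 0.91 with miR-24 and miR-24-1* of 0.66. miR-27a* and miR-27b* had -0.91 and -0.99 with miR-27, and 0.94 with each other. Outside the clusters the probes most like miR-23 were let-7g (0.98), let-7a (0.96) and miR-30d (0.93). For miR-24 they were miR-101b (0.98), let-7a (0.98) and miR-301a (0.97), and for miR-27 let-7g (0.97), let-7a (0.95) and miR-101b (0.93).

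For context, 15 miRNAs reported to repress genes of the TGF-beta pathway were all on the array and tested; 2 of them, miR-145 and miR-199a-5p, are also among the fibroblast and mesenchymal markers. With TGF-beta over all lines 5 rose and 2 fell, led by miR-146a (0.58 ± 0.03, limma, adjusted p = 4.83e-10) and miR-155 (0.46 ± 0.03, adjusted p = 4.5e-09); 7 of 15 called stands beside 39.5% of all tested probes. With TGF-beta in 67NR, where 11% of all probes were called, 0 rose and 2 fell (1 to 4 called over the alternatives): miR-130a by a difference of -0.41 ± 0.07 (limma, adjusted p = 0.000461) and miR-26a by -0.21 ± 0.06 (adjusted p = 0.0312). In 4TO7, with 21.4% of all probes called, 5 rose and 2 fell, led by miR-155, a miRNA of immune activation (1.15 ± 0.05, adjusted p = 7.8e-11), and again miR-26a (-0.59 ± 0.06, adjusted p = 1.55e-06). In 4T1, with 31.8% called, 4 rose and 3 fell (3 to 8 called over the alternatives), led by miR-146a, a brake on innate immune signalling (1.27 ± 0.06, adjusted p = 3.44e-11), and miR-26a (-0.41 ± 0.06, adjusted p = 6.35e-05). The list's median difference was 0.04, 0.06 and 0.02 in the 3 lines, beside 0.01, -0.00 and 0.02 over all tested probes. Against 67NR 9 rose and 5 fell in 4TO7, and 10 rose and 4 fell in 4T1, with medians of 0.45 and 0.68. These 14 of 15 in each stand beside 86.8% and 89.6% of all probes called. The leading pair in both was miR-17 (2.34 ± 0.04 in 4TO7 and 2.77 ± 0.04 in 4T1, adjusted p = 2.67e-17 and 1.66e-18) and miR-18a (1.84 ± 0.04 and 2.18 ± 0.04, adjusted p = 3.31e-16 and 2.03e-17), members of the growth-promoting miR-17 cluster. In 4T1 against 4TO7, with 63% of all probes called, 8 rose and 5 fell, led by miR-146a (1.60 ± 0.04, adjusted p = 3.03e-15) and miR-155 (0.56 ± 0.04, adjusted p = 2.8e-09). In rigid against compliant culture over all lines, with 21.9% of all probes called, 0 rose and 4 fell (1 to 6 called over the alternatives), led by miR-146a (-0.36 ± 0.03, adjusted p = 1.14e-06) and miR-26a (-0.13 ± 0.03, adjusted p = 0.0173). Within lines stiffness changed 0 of 15 in 67NR (0 to 3 over the alternatives) and in 4TO7 (0 to 2) and 1 of 15 in 4T1 (0 to 1), where miR-146a stood at -0.80 ± 0.06 (adjusted p = 5.71e-08).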

How the data were processed

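Each sample was hybridised to a Dharmacon miRNA array of 2 dyes. Per the deposited notes on the columns, the authors gave each probe a relative intensity (sample dye over reference dye, after background subtraction and labelling correction) with an error, and a detection p-value against background probes. They also deposited a log2 value table of 338 probes, which equals log2 of the intensity plus a constant for each array (-0.29 to 0.24); no source used here states the rule for these constants or the scanner settings.

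Here log2 intensities of 558 miRNA probes were quantile-normalized. The 365 probes detected (p under 0.05) on both arrays of at least 1 group, with a fail code on fewer than 12 arrays, were tested with limma 3.58.1 in R 4.3.3. The fit had 12 group means, 12 residual degrees of freedom and a mean-variance trend, with Benjamini-Hochberg adjustment over 365 probes in each comparison and calls at an adjusted p under 0.05. The number of arrays and the error of each intensity, with a median of 4.82% to 7.85% for the 3 main-strand probes, limit the precision.

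The alternatives were other scalings, no filter, array weights, no trend, slide and set number as blocks, and each array left out in turn. Deviations of same-numbered sets correlated above 0.1 in every pair of 4T1 groups (0.23 to 0.49) but not in 67NR (lowest -0.09) or 4TO7 (lowest -0.16), so set numbers were taken to pair arrays in 4T1 only. The block within line was nevertheless fitted in every line at once, and no fit held it in 4T1 alone. Named were the rule's probes, the passenger strands of the same hairpins, the 3 probes most like each main strand by r, and the 2 smallest p in each comparison of the pathway list. Members, lists and comparisons were chosen with earlier results of these data known.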

Additional observations from a re-analysis of the deposited data

Results flagged for a closer look

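The response of miR-23 and miR-27 to TGF-beta differed between the 3 lines by the line by treatment term (limma, adjusted p = 0.0208 and 0.0141). The TGF-beta difference in 4TO7 exceeded that in 67NR by 0.38 for miR-23 (adjusted p = 0.047) and 0.53 for miR-27 (adjusted p = 0.0188). In 4T1 it exceeded that in 67NR by 0.47 for miR-23 (adjusted p = 0.0207) and 0.53 for miR-27 (adjusted p = 0.0214). In 67NR 4 of 4 TGF-beta arrays lay below every inhibitor array for miR-23, and at or below every inhibitor array for miR-27, whereas in 4TO7 and 4T1 the treatments overlapped, or, for miR-27 in 4T1, met at a shared value. With 2 arrays in each of the 12 groups, single arrays could not be screened for outliers.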

How the results depend on the processing

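Of 17 comparisons, 13 kept the number of called main strands (within 1.5 times) under all 11 alternatives. The exceptions were the following. With the set number as a replicate block within each line, TGF-beta over all lines called 1 main strand in place of 0 (miR-23, -0.09, adjusted p = 0.0271); this pairing changed no other call of a main strand except miR-24 in 67NR (adjusted p = 0.0456), and a block over all lines changed none of a main strand. Under the block within line miR-24-2* also passed for TGF-beta in 67NR (adjusted p = 0.0135), for stiffness in 4TO7 (adjusted p = 0.0469) in the line by treatment term (adjusted p = 0.0378) and in its terms of 4TO7 against 67NR (-0.14, adjusted p = 0.0449) and 4T1 against 4TO7 (0.16, adjusted p = 0.0316). In the opposite direction miR-27a* passed as higher with TGF-beta over all lines (0.11, adjusted p = 0.0273) and miR-27b* in 67NR (0.15, adjusted p = 0.0423, or 0.0408 with the block over all lines). Under the block over all lines miR-24-2* passed in 67NR (adjusted p = 0.0416) and in 4T1 (adjusted p = 0.038). With slide as a fixed block the line by treatment term called 1 in place of 2, the 4TO7 against 67NR term 1 in place of 2, and the 4T1 against 67NR term 0 in place of 2. The 4TO7 against 67NR term also called 1 without the filter and 1 without the trend. With cyclic loess the line by treatment term also passed for miR-24 (adjusted p = 0.0409). The cause was not tested. No value of a main strand that had passed changed sign.

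Leaving out single arrays, the count ran from 0 to 2 for TGF-beta over all lines, 1 to 3 in 67NR, 0 to 1 in 4T1, 1 to 2 for the line by treatment term, 0 to 2 for 4TO7 against 67NR and 0 to 3 for 4T1 against 67NR, and did not change in the other comparisons. Without set 1 of compliant 4T1 with inhibitor, TGF-beta over all lines called miR-23 (-0.13, adjusted p = 0.00987) and miR-24 (-0.13, adjusted p = 0.0159), and without set 2 of compliant 4T1 with TGF-beta miR-23 (-0.12, adjusted p = 0.0481). Without set 2 of compliant 4T1 with inhibitor miR-23 was higher with TGF-beta in 4T1 (0.20, adjusted p = 0.0435). The line by treatment term for miR-23 was lost without set 2 of compliant 67NR with TGF-beta, set 1 of rigid 67NR with inhibitor or set 1 of rigid 67NR with TGF-beta (adjusted p = 0.0568, 0.0561 and 0.051).

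The number of all probes called moved by over 1.5 times as follows. TGF-beta in 67NR called 40, but 61 in the authors' value table, 63 with array weights and 70 with the block within line. With slide as a fixed block TGF-beta in 4T1 called 50 in place of 116, stiffness 39 in place of 80 over all lines and 12 in place of 27 in 4T1. For the TGF-beta terms of 4TO7 against 67NR, 4T1 against 67NR and 4T1 against 4TO7 it called 27, 14 and 24 in place of 42, 25 and 41. Stiffness in 4TO7 called 10, but 21 with scaling to the detected probes, 18 with the block within line and 16 with cyclic loess, and the line by treatment term 81 with that block in place of 53. Of the calls in 67NR 30% were higher, but 10.9% with median scaling, 42.1% with scaling to the detected probes, 57.4% in the authors' table and 14.6% with cyclic loess, which was chosen after seeing the data. In the same order the share was 33.9%, 65.8%, 68.8% and 42.2% over all lines (54.2% with quantile normalization), 33.8%, 46.6%, 56.3% and 40% in 4TO7 (44.9%), and 34.8%, 59.7%, 58.3% and 37.7% in 4T1 (39.7%). For 4T1 against 4TO7 it was 26.2%, 25.6%, 42.2% and 55.9% (36.5%), and for stiffness over all lines 45.5%, 30.8%, 41.5% and 29.3% (48.8%).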
